A study of Mus musculus with 18 samples.

Results

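The genes described here are 46 genes of the lysosome, among the 49315 genes counted in mouse bone marrow-derived macrophages (BMDMs). The 46 were listed by symbol and not by a rule on their measured values, but with earlier results of these data known. They comprise 14 proteases (the cathepsins, legumain and related peptidases), 13 enzymes that act on sugar chains, 8 genes of lysosomal lipid handling, 6 genes of the lysosomal membrane and its proton pump, 3 phosphatase and nuclease genes, and the transcription factors Tfeb and Tfe3. All 46 were found by gene identifier, and all 46 passed the filter on low counts in every comparison. Each had at least 10 counts in every library except Ids, which had 5 in 1 library.

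RNA was sequenced from BMDMs labelled WT or HDAC3 KO that were left untreated, given non-apoptotic cells (NACs) or given apoptotic cells (ACs), with 3 libraries labelled as biological replicates for each of these 6 conditions. The study's methods give the WT-labelled mice as HDAC3 f/f, with loxP sites in Hdac3, and the KO-labelled mice as M-HDAC3-/-, in which Cre is driven by the Lyz2 (lysozyme) locus of myeloid cells and removes the flanked exon. All macrophages were grown in L929-conditioned medium. The cells fed to them came from the human leukemia line K562, irradiated with UVB for 15 min to give ACs or left without irradiation as NACs, and the macrophages were cocultured for 45 min, washed, and kept for 5 h before RNA was taken. The comparison of genotype labels with ACs asks which genes differ when macrophages have met dead cells to engulf, and the comparisons with NACs and untreated cells give the same difference without this load.

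A macrophage that engulfs a dead cell delivers it to a phagosome, which fuses with lysosomes. There the proton pump acidifies the lumen, and acid hydrolases cut the cargo: cathepsins and legumain cut proteins, glycosidases and sulfatases cut sugar chains, and lipases, sphingolipid hydrolases and the NPC proteins release and export lipids. TFEB and TFE3 are transcription factors that can raise many lysosomal genes together, in part through promoter elements with the core CACGTG, and some cathepsins also leave the cell and cut the matrix around it.

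The libraries held 4704491 to 26421267 counts on genes, with a median of 16477929. Hdac3, the targeted gene, did not separate the labels: its level was 3.38 to 48.7 CPM in WT-labelled libraries and 4.66 to 74.6 CPM in KO-labelled libraries, and the 2 labels overlapped under each treatment (CPM are counts scaled to a common library size with TMM factors over all 18 libraries). Counts over the whole gene need not show the loss of 1 exon, so this level checks neither the deletion nor the labels. The groups are therefore called by their labels throughout. Lyz2, the locus that carries Cre, had log2 fold changes of -1.94 untreated (edgeR adjusted p = 0.0425), 1.20 with NACs (adjusted p = 0.144) and 0.80 with ACs (adjusted p = 0.284). Leaving out 1 library at a time gave -2.256 to -1.415 untreated, 0.83 to 1.83 with NACs and 0.38 to 1.14 with ACs. Of 6 fits each, 1, 1 and 0 passed the threshold. The 8 macrophage markers summed to 5942 to 19704 CPM and the 6 dendritic cell markers to 0.265 to 2.66 CPM. The 8 granulocyte markers summed to 222 to 1267 CPM, so transcripts of granulocytes were present in every group. The KO-labelled untreated replicate 1 stood apart, with the smallest count total and correlations to its replicates down to 0.868. The untreated calls, and some but not all other untreated values, are also given without it.

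The 46 genes took a large part of the RNA. Their summed share of all counts was 6.44%, 5.64% and 5.75% in the 3 WT-labelled untreated libraries. NACs gave 7.53%, 6.38% and 9.24% under this label, where ACs gave 6.27%, 5.57% and 6.18%. In KO-labelled libraries the untreated shares were 5.6%, 11.6% and 8.77%, those with NACs 8.40%, 5.99% and 6.85%, and those with ACs 9.38%, 11.0% and 11.5%. With ACs every KO-labelled library lay above every WT-labelled library, and untreated KO-labelled libraries spanned the widest range. Psap, Ctsd and Ctsb made up most of this share. Without them the remaining 43 genes took 2.99% to 3.72% of counts in KO-labelled libraries with ACs, against 1.73% to 2.71% in the other 15 libraries.

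**Figure D1:**
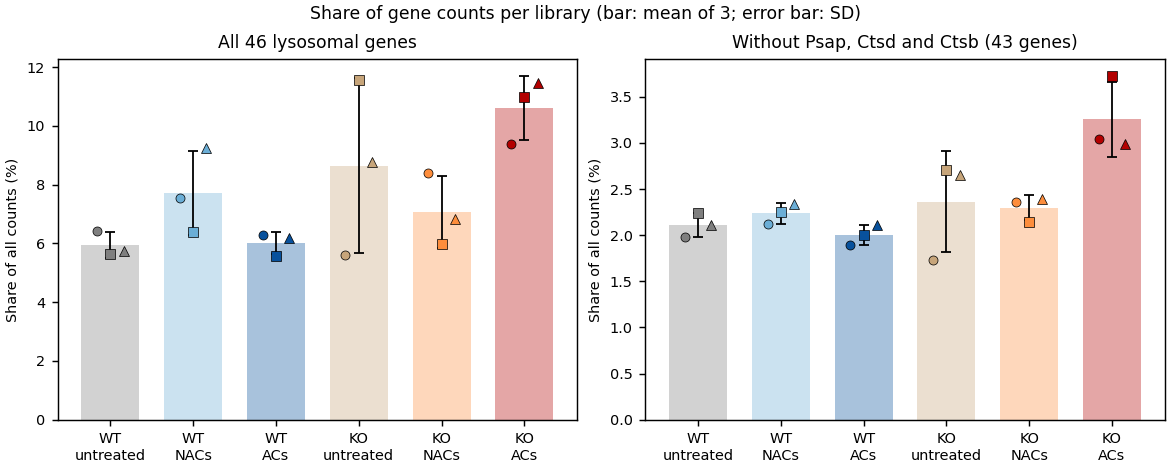
Share of all gene counts in percent taken by the 46 lysosomal genes (left) and by the 43 without Psap, Ctsd and Ctsb (right), for each of the 6 groups; bars are means of 3 libraries, error bars SD and symbols single libraries. KO-labelled libraries with ACs lie at 9.38% to 11.5% for all 46 genes, above the WT-labelled libraries with ACs at 5.57% to 6.27%.

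Per kilobase of exon, which allows levels to be set between genes, Psap was the most abundant of the 46, with a mean over the 6 groups of 8412 CPM per kb. Psap encodes the precursor of the saposins, which present sphingolipids to their hydrolases. It was followed by Ctsd at 7697 CPM per kb, an aspartic protease, Ctsb at 3038, a cysteine protease, Cd63 at 2617, a tetraspanin of the lysosomal membrane, and Ctsz at 2175, a carboxypeptidase. The library ranges of Psap (3023 to 20349 CPM per kb) and Ctsd (2661 to 16752) overlapped over most of their length, so these neighbours do not differ beyond their spread. The lowest were Manba at 3.30, Ctso at 2.21 and Ids at 1.23 CPM per kb. Ids, which removes sulfate from heparan and dermatan sulfate, had 1.26 to 12.7 CPM, the least counts of the 46. The widest range across libraries was that of Acp5, 20.7-fold between the highest and the lowest, and the narrowest that of Cd63, 2.30-fold.

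**Figure D2:**
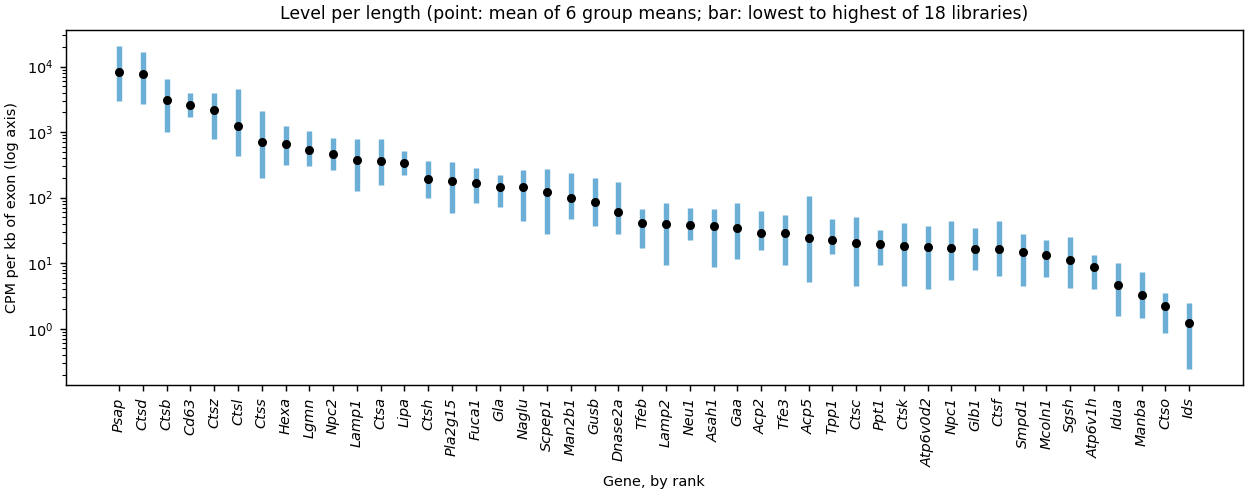
Level of each of the 46 genes in CPM per kb of exon on a log axis, in order of the mean of the 6 group means (points), with bars from the lowest to the highest of 18 libraries. Psap and Ctsd lead at 8412 and 7697 CPM per kb, and Ids is lowest at 1.23.

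With ACs, 5 of the 46 genes were higher in KO-labelled than in WT-labelled macrophages and none was lower: the cathepsins Ctsl, Ctss and Ctsk, the phosphatase Acp5 and the galactosidase Glb1 (edgeR's quasi-likelihood test, adjusted p under 0.05 over 12304 genes). Of all genes tested, 0.788% were higher and 2.96% lower by the same rule. The fitted log2 fold change was above 0 for 33 of the 46, with a median of 0.78, against 49.7% and a median of -0.01 over all genes. In 18 of the 46 every KO-labelled library lay above every WT-labelled library and in none was the order opposite, where the groups did not overlap for 14.8% and 13.5% of all genes. In such bulk RNA, more RNA per cell and more cells of a type cannot be told apart. The p-values treat the 3 libraries of a group as independent.

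Ctsl (ENSMUSG00000021477, chr13:64363214-64370306, reverse strand, GRCm38) encodes cathepsin L, an endopeptidase of the lysosome. It had 1664, 856 and 1225 CPM in WT-labelled libraries with ACs and 3141, 8982 and 5473 CPM in KO-labelled libraries. The lowest KO-labelled library was above the highest WT-labelled one, and KO-labelled replicates differed among themselves more than WT-labelled ones. The log2 fold change was 2.20 (SE 0.476, edgeR adjusted p = 0.024), the largest of the 46, with means of 1248 ± 405 and 5865 ± 2940 CPM (SD, n = 3 each). In the other groups Ctsl ran from 856 to 5145 CPM, and the latter value, from KO-labelled untreated replicate 2, lay within the range seen with ACs. Ctsl is shown with the 250 bases before its RefSeq start (chr13:64370521-64370770, GRCm38.p6, reverse strand), since it changed most, and the capitals mark its CACGTG. That start lies upstream of the gene end used in counting.
Ctsl: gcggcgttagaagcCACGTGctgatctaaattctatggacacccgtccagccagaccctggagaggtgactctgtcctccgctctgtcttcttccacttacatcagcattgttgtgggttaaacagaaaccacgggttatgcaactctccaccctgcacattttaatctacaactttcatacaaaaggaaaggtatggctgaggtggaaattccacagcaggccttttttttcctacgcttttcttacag

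Ctss (ENSMUSG00000038642, chr3:95526786-95556403, forward strand) encodes cathepsin S, an endopeptidase that trims the invariant chain of MHC class II and stays active near neutral pH. Its levels were 619, 389 and 689 CPM with the WT label and 2106, 2818 and 1858 CPM with the KO label. All 3 KO-labelled libraries with ACs exceeded every one of the other 15 libraries, of which the highest had 1304 CPM. The log2 fold change was 1.96 (SE 0.424, edgeR adjusted p = 0.024).

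Ctsk (ENSMUSG00000028111, chr3:95499256-95509362, forward strand) encodes cathepsin K, a collagenase best known from osteoclasts. It was much less abundant, with 23.4, 7.54 and 18.5 CPM in WT-labelled and 41.5, 62.2 and 61.4 CPM in KO-labelled libraries. The groups did not overlap, and the log2 fold change was 1.70 (SE 0.453, edgeR adjusted p = 0.045).

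Acp5 (ENSMUSG00000001348, chr9:22126727-22135711, reverse strand) encodes tartrate-resistant acid phosphatase, an enzyme of osteoclasts and of activated macrophages. It had 20.4, 14.3 and 26.4 CPM in WT-labelled and 35.3, 71.5 and 102 CPM in KO-labelled libraries with ACs. Its log2 fold change was 1.72 (SE 0.447, edgeR adjusted p = 0.0424). The groups did not overlap with ACs, but higher values occurred elsewhere, 133 CPM in WT-labelled replicate 3 with NACs and 216 CPM in KO-labelled untreated replicate 2. RefSeq gives Acp5 3 starts, and the 250 bases before the innermost (chr9:22130599-22130848, GRCm38.p6, reverse strand) are shown because they alone of the 3 hold TCATGTG, which reads as the capitals CACATGA on the strand printed.
Acp5: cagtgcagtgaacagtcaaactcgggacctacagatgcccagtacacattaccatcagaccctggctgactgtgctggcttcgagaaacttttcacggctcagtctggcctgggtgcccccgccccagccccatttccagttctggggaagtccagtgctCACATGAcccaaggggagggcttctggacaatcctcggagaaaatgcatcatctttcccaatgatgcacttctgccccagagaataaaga

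Because Ctsk and Acp5 are osteoclast genes, the 8 osteoclast markers were read in the same libraries. Calcr, Ocstamp and Oscar were under 1 CPM in every library, and Calcr was at 0 counts with ACs under both labels. The summed markers were 87.3 to 184 CPM in WT-labelled and 116 to 277 CPM in KO-labelled libraries with ACs, and of 5 tested none passed. Mmp9, with 55.7 to 213 CPM in these libraries, set much of that sum, and it overlapped between the labels. The other 4 tested markers were all higher in every KO-labelled library than in every WT-labelled one: Itgb3 (8.24 to 16.9 against 1.05 to 5.06 CPM), Nfatc1 (19.6 to 39.96 against 15.5 to 16.6 CPM), Tnfrsf11a (11.8 to 17.9 against 8.38 to 9.85 CPM) and Dcstamp (1.96 to 2.92 against 0.419 to 1.41 CPM). They thus moved in the direction of Ctsk and Acp5, at adjusted p of 0.0724 to 0.395 in edgeR's test, and their part in those genes was not tested. Granulocyte markers summed to 373 to 958 and 441 to 763 CPM, with 1 of 8 lower, and macrophage markers to 9150 to 11091 and 14634 to 16714 CPM, with none of 8 past the test. The summed macrophage ranges did not overlap between the labels, but Lyz2 and Csf1r carried much of the sum and the members went both ways. Of the 8, 5 had fitted values above 0, namely Itgam (1.40), Adgre1 (1.32), Csf1r (0.88), Lyz2 (0.80) and Fcgr1 (0.49), and Cd14 (-0.17), Cd68 (-0.19) and Mertk (-1.41) lay below. Adgre1 was higher and Mertk lower in every KO-labelled library. The part of these markers in the 46 genes was not tested.

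Glb1 (ENSMUSG00000045594, chr9:114401076-114474898, forward strand) encodes beta-galactosidase, which removes galactose from gangliosides and keratan sulfate. Its levels of 35.7, 32.4 and 26.1 CPM in WT-labelled and 103, 82.1 and 80.5 CPM in KO-labelled libraries were the most even of the 5 within a group. The log2 fold change was 1.44 (SE 0.389, edgeR adjusted p = 0.0472). Tmppe, a gene on the same strand that overlaps Glb1, had 4.64 to 20.5 CPM, so reads in the shared part are uncertain.

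**Figure D3:**
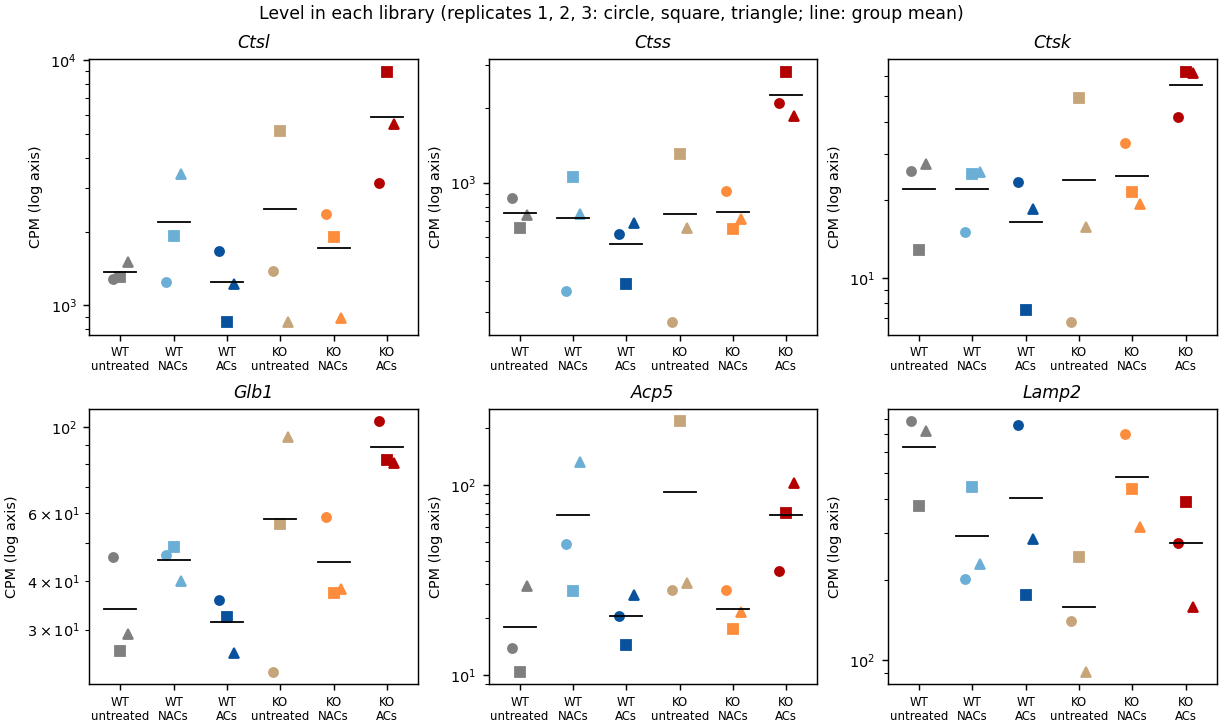
CPM on a log axis for Ctsl, Ctss, Ctsk, Glb1, Acp5 and Lamp2 in each of 18 libraries by group, with replicates 1, 2 and 3 as circle, square and triangle and group means as lines. Ctss in KO-labelled libraries with ACs, at 1858 to 2818 CPM, lies above all other libraries, while Acp5 is as high in single libraries of other groups.

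Beyond these 5, further proteases and glycosidases had fitted values above 0 without passing the test. Lgmn, the asparaginyl endopeptidase that processes other lysosomal proteases, had 884, 709 and 753 CPM in WT-labelled and 1792, 1926 and 2378 CPM in KO-labelled libraries, with a log2 fold change of 1.32 (edgeR adjusted p = 0.0632). Among enzymes of sugar chains Gusb (1.36), Manba (1.34), Idua (1.33) and Hexa (1.28) had groups that did not overlap, with adjusted p of 0.0733, 0.0635, 0.0872 and 0.0762. These remove glucuronate, mannose, iduronate and N-acetylgalactosamine from their substrates. Of the 14 proteases 3 passed the test and 12 had fitted values above 0, with a median of 0.95. Of the 13 enzymes of sugar chains 1 passed and 9 were above 0, with a median of 0.87. Over all genes 0.788% passed as higher and 2.96% as lower, and 49.7% were above 0. Naglu, which acts on heparan sulfate, had the lowest value of that group, -0.86 (adjusted p = 0.272).

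None of the 8 lipid genes passed, where 0.788% of all genes passed as higher and 2.96% as lower. Fitted values were above 0 for 7 of the 8, with a median of 0.53, against 49.7% and -0.01 over all genes. For 3 of the 8 (Npc2, Psap and Ppt1) the KO-labelled libraries all lay above the WT-labelled ones. For 0 they all lay below, against 14.8% and 13.5% of all genes. Npc1, the cholesterol exporter of the lysosomal membrane, had the largest value of the 8, 1.33 (SE 0.462, edgeR adjusted p = 0.0942). It had 123, 149 and 129 CPM in WT-labelled and 464, 123 and 478 CPM in KO-labelled libraries. KO-labelled replicate 2 was at the WT level while the other KO-labelled libraries were far above it. The same replicate was the lowest KO-labelled library for Man2b1 (1262, 416 and 1880 CPM) and Scpep1 (515, 183 and 574 CPM). It was the highest of the 3 for Ctsl and Ctss. Npc2, the soluble partner of Npc1, had no such gap, with 1720, 2527 and 2620.5 CPM against 969, 928 and 860.1, and a log2 fold change of 1.27 (adjusted p = 0.0746).

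None of the 6 genes of the membrane and proton pump passed either. Of the 6, 3 had values above 0, against 49.7% of all genes. Lamp1, an abundant membrane glycoprotein, had the largest, 1.03 (SE 0.409, edgeR adjusted p = 0.13), with non-overlapping groups of 985, 728 and 666 CPM and 1557, 2101 and 1359 CPM. Mcoln1, a lysosomal calcium channel, lay at -0.95 (adjusted p = 0.184) and Lamp2 at -0.59 (adjusted p = 0.497). The 2 regulators did not pass. Tfeb had 199.8, 374 and 322 CPM in WT-labelled and 111, 116 and 203 CPM in KO-labelled libraries, with the lowest log2 fold change of the 46, -1.12 (SE 0.417, adjusted p = 0.112). Tfe3 had 154, 378 and 263 CPM and 237, 152 and 399.8 CPM, with a value of -0.09 (adjusted p = 0.921) whose sign turned with the setting.

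The call of 5 genes depended on single libraries. It fell to 3, 2 and 3 without WT-labelled replicates 1, 2 and 3 (2.91%, 3.96% and 2.39% of all genes), to 3 without KO-labelled replicate 3 (2.68%) and to 0, with no gene called at all, without KO-labelled replicate 1, and it rose to 12 without KO-labelled replicate 2, where 13.3% of all genes were called. Ctsl and Ctss were called in 5 of these 6 fits and under each of the 8 other settings tried. Ctsk, Acp5 and Glb1 were each called in 2 of the 6 fits and under 6 of the 8 settings.

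A second list of 49 lysosomal genes, made of further subunits, enzymes, membrane and sorting genes outside the 46, was counted in the same fit. With ACs, 3 were higher under the KO label and 1 was lower, with a median of 0.50, where 0.788% and 2.96% of all genes were higher and lower and their median was -0.01. Among those higher were Gm2a (1.75, edgeR adjusted p = 0.0263), the activator of ganglioside breakdown, and Sort1 (1.80, adjusted p = 0.0363), a sorting receptor. The lower one was Atp6v0d1, a pump subunit (-1.58, adjusted p = 0.0472). Its paralog Atp6v0d2, one of the 46, had 54.9, 15.5 and 58.3 CPM and 94.1, 101.4 and 36.3 CPM, with overlapping groups (0.83, adjusted p = 0.325).

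Promoters of the 46 were searched for the TFEB and TFE3 core CACGTG, which is its own complement, for the longer TCACGTGA, which contains it, and for TCATGTG on either strand, the core bound by the related MITF. RefSeq (GRCm38.p6) gave promoters, from 250 bases before to 50 after a start, for 40 of the 46. CACGTG was in 12 of the 40, or 30% (12 genes), against 8.09% of 27025 genes, TCACGTGA in 4 (10%) against 1.12%, and TCATGTG in 6 (15%) against 4.31%. These are matches of letters and not binding sites. The 27025 are all genes with such promoters, whether or not they passed the filter on low counts. The shares thus do not set the members against other expressed genes. Of the 5 genes higher with ACs, Ctsl and Glb1 held CACGTG and Acp5 and Ctss TCATGTG. Windows of 30 bases are given for genes of both outcomes with ACs, the motif in capitals: Glb1 and Ctss, which passed, Lamp1 and Lgmn, which did not overlap but did not pass, and Mcoln1, Naglu and Gla, which had negative fitted values.
Glb1: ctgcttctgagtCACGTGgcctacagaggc
Ctss: attgtggatgctTCATGTGacaagctccga
Lamp1: tggtccagcgccCACGTGatgccgactggc
Lgmn: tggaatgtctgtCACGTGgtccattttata
Mcoln1: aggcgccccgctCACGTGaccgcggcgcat
Naglu: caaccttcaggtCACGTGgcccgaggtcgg
Gla: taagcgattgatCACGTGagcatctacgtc
In that order they lie on GRCm38.p6 at Glb1 chr9:114401018-114401047 (forward), Ctss chr3:95526792-95526821 (forward), Lamp1 chr8:13159104-13159133 (forward), Lgmn chr12:102439124-102439153 (reverse), Mcoln1 chr8:3500462-3500491 (forward), Naglu chr11:101070009-101070038 (forward) and Gla chrX:134601215-134601244 (reverse). Lamp1 held CACGTG 4 times in this stretch, more than any other of the 40, while the 4 genes with TCACGTGA had log2 fold changes of 0.97 (Ctsd), 0.73 (Ctsa), -0.07 (Gla) and -0.95 (Mcoln1) with ACs. A CACGTG core was thus present in genes with fitted values above and below 0, and its part in the changes was not tested.

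With NACs, none of the 46 genes differed between the genotype labels in edgeR's quasi-likelihood test, where 0.864% of 11923 genes did. Unadjusted p was under 0.05 for 12 of the 46, against 24.2% of all genes, and DESeq2's Wald test called 1, against 3.70%. Fitted values were above 0 for 23 and below for 23, against 49.9% above 0 over all genes. KO-labelled libraries lay all above WT-labelled ones for 8 of the 46 and all below for 7, against 15.1% and 11.9% of all genes. The largest was that of Ctsc, cathepsin C, a dipeptidyl peptidase that activates granule proteases, with 39.0, 109 and 41.4 CPM under the WT label and 237, 118 and 116 CPM under the KO label (log2 fold change 1.34, SE 0.415, adjusted p = 0.0973). Leaving out 1 library at a time gave 0.90, without KO-labelled replicate 1, to 2.10, without WT-labelled replicate 2, with 2 of 6 fits past the threshold. The lowest was that of Acp5, with 48.7, 27.8 and 133 CPM and 28.0, 17.5 and 21.4 CPM (-1.61, adjusted p = 0.0965), so both Acp5 and Ctsl (-0.33, adjusted p = 0.622) had negative fitted values here where they were higher with ACs. The Acp5 value rested on WT-labelled replicate 3, without which it was -0.68 (adjusted p = 0.384), and leaving out 1 library at a time gave -1.90 to -0.68, with 3 of 6 fits past the threshold. In the other roles the largest were Ids (1.13, adjusted p = 0.123), Smpd1, the acid sphingomyelinase (-1.02, adjusted p = 0.107), Lamp2 (0.76, adjusted p = 0.218) and Tfeb (-0.87, adjusted p = 0.149). Tfe3 was at -0.66 (adjusted p = 0.241). When 1 library was left out, Ids ran from 0.97 to 1.55, Smpd1 from -1.21 to -0.78, Lamp2 from 0.38 to 1.30 and Tfe3 from -0.85 to -0.36. Each of these passed the threshold in 1 of 6 fits, and Tfeb, from -1.17 to -0.67, in 0. Without WT-labelled replicate 2 the fit called 15 of the 46, 7 higher and 8 lower, beside 16.9% and 7.79% of all genes, and without KO-labelled replicates 1 and 3 it called 1 and 2, beside 0.712% and 1.41%.

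In untreated macrophages 8 of the 46 differed between the labels, 6 higher and 2 lower under the KO label, where 3.04% of 12101 genes were higher and 8.56% lower. The higher genes were Gaa, Sgsh and Gusb of the sugar chain enzymes, the phospholipase Pla2g15, the protease Ctsf and the regulator Tfe3, and the lower ones were Lamp2 and Ctsc. None of these 8 was among the 5 called with ACs. With so few genes in each set, this does not show that the 2 comparisons involve different genes. Ctsa, Gusb, Hexa and Psap were higher in every KO-labelled than in every WT-labelled library both untreated and with ACs. KO-labelled libraries all lay above WT-labelled ones for 17 of the 46 and all below for 6, against 18.2% and 22.7% of all genes. Fitted values were above 0 for 33 of the 46 (median 0.66), against 51.6% of all genes.

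Gaa, acid alpha-glucosidase, which degrades glycogen, had 55.2, 72.8 and 104 CPM in WT-labelled and 184, 291 and 394 CPM in KO-labelled untreated libraries. Its log2 fold change was 1.81 (SE 0.434, edgeR adjusted p = 0.0295). Sgsh, a sulfatase of heparan sulfate, went from 26.8, 18.7 and 28.2 CPM to 54.0, 88.0 and 104 CPM (1.65, adjusted p = 0.033). Gusb had 172, 202 and 235 CPM and 271, 827 and 828 CPM (1.58, adjusted p = 0.0499), with KO-labelled replicate 1 near the WT level.

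Pla2g15, a lysosomal phospholipase, had 259, 176 and 406 CPM and 766, 872 and 1048 CPM (1.60, edgeR adjusted p = 0.0366). Ctsf, a cysteine protease, had 21.9, 12.7 and 21.2 CPM and 50.7, 45.9 and 52.0 CPM (1.32, adjusted p = 0.0492). Tfe3 had 86.4, 108 and 222 CPM and 293, 508 and 496 CPM (1.58, SE 0.459, adjusted p = 0.044). In each of these the KO-labelled libraries all lay above the WT-labelled ones, and Tfeb, with 97.1, 117 and 238 CPM and 373, 308 and 285 CPM, did so too without passing (1.02, adjusted p = 0.104).

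Lamp2, the membrane glycoprotein needed for chaperone-mediated autophagy, had 782, 377 and 718 CPM in WT-labelled and 139.7, 242 and 90.7 CPM in KO-labelled untreated libraries. It fell by 2.04 on the log2 scale (SE 0.504, edgeR adjusted p = 0.0308), the lowest value of the 46. Ctsc had 291, 141 and 123 CPM and 25.9, 58.4 and 87.6 CPM (-1.81, SE 0.523, adjusted p = 0.044). Acp5 had the highest fitted value, 2.39 (SE 0.757, adjusted p = 0.0545), but its KO-labelled libraries held 28.1, 216 and 30.4 CPM, so 1 library set it. Without KO-labelled replicate 1, a fit that called 46.3% of all genes, the 8 genes ran from -2.05 for Lamp2 and -1.52 for Ctsc to 1.99 for Gaa, with Gusb at 1.87, Sgsh at 1.81, Tfe3 at 1.73, Pla2g15 at 1.64 and Ctsf at 1.25, and adjusted p of 0.00503 or less, while the other 5 fits that left out 1 library called 0 or 1 of the 46. Lyz2 was then at -1.75 (adjusted p = 0.00121).

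The untreated differences ran with the base composition of the transcripts, and its part in them was not tested beyond an offset for it. GC content of the 46 ran from 40.9% (Lamp2) to 61.3% (Tfeb). Spearman's rank correlation between GC content and log2 fold change was 0.86 over the 46 genes untreated, -0.83 with NACs and -0.16 with ACs, and over all genes tested 0.71, -0.57 and 0.08. These correlations are descriptions, since all genes share the same libraries. Among treatments within a label the value for the 46 was 0.81 for ACs against untreated and -0.64 for ACs against NACs in WT-labelled macrophages, and -0.83 and 0.10 in KO-labelled macrophages. When each library was given an offset for GC and length, 0 of the 46 were called untreated, beside 0% of all genes. Without the offset 11.6% of all genes were called. With it Lamp2 was at -0.69 (edgeR adjusted p = 0.477) and Gaa at 0.89 (adjusted p = 0.213). With the same offset 14 were called with ACs, 13 higher and 1 lower, all 5 above among them, beside 4.46% and 5.30% of all genes. With NACs it called 0 of the 46, beside 0.00839% of all genes, with Ctsc at 0.81 (adjusted p = 0.236), Acp5 at -1.09 (adjusted p = 0.301) and Lamp2 at 0.18 (adjusted p = 0.805).

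**Figure D4:**
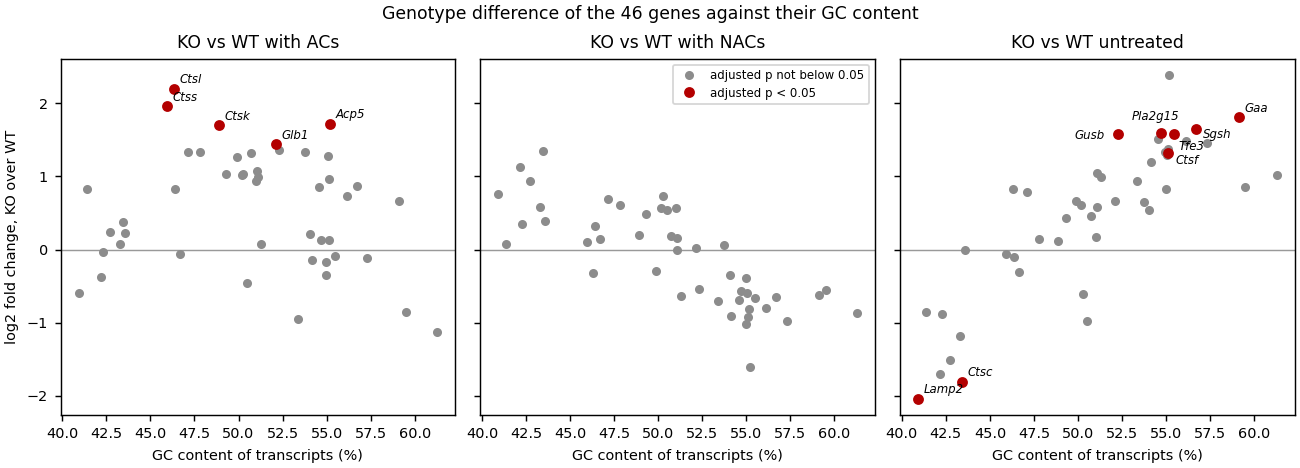
Log2 fold change of KO-labelled over WT-labelled libraries against the GC content of the transcripts in percent, 1 point a gene for the 46 genes, with ACs, with NACs and untreated; red points have an adjusted p under 0.05 and carry their names. The points rise with GC content untreated (rank correlation 0.86), fall with NACs (-0.83) and show neither with ACs (-0.16).

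The untreated calls also depended on single libraries and on scaling. Without KO-labelled replicate 1 the fit called 25 of the 46, 19 higher and 6 lower, but also 19.3% and 27.0% of all genes higher and lower, so that 46.3% of all genes were called. Without KO-labelled replicate 2 it called only Lamp2, beside 1.98% of all genes. Without any other untreated library it called 0 of the 46, and of all genes 0.608% without WT-labelled replicate 1 and 0% in the other fits. With library totals in place of TMM factors 2 were higher and 6 lower, where 0.446% and 19.4% of all genes were, beside a median over all genes that moved from 0.06 to -0.42.

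In WT-labelled macrophages none of the 46 genes, and 0% of all genes, differed between ACs and NACs in edgeR's quasi-likelihood test. Unadjusted p was under 0.05 for 6 of the 46, against 4.16% of all genes, and DESeq2 called 0, beside 0% of all genes. Acp5 had the largest value, -1.74 (SE 0.504, adjusted p = 0.898), from 48.7, 27.8 and 133 CPM with NACs to 20.4, 14.3 and 26.4 CPM with ACs, with no overlap, and was -0.88 without replicate 3 with NACs. Ctsl was at -0.78 and Ctss at -0.33 (adjusted p = 0.898 and 0.907). The median of the 46 was -0.24, and 16 had values above 0, against 53.6% of all genes. Libraries with ACs lay all above those with NACs for 3 of the 46 and all below for 6, against 5.47% and 4.88% of all genes.

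In KO-labelled macrophages 5 of the 46 were higher with ACs than with NACs and none was lower, where 2.65% of 12244 genes were higher and 4.73% lower. They were Ctsl, Ctss, Acp5, Gusb and Idua. Fitted values were above 0 for 34 of the 46 against 54.5% of all genes, and libraries did not overlap for 16 in the higher and 2 in the lower direction, against 14.5% and 14.8%. This comparison uses the same KO-labelled libraries with ACs as the genotype comparison above, so the values stand side by side and are not independent. Ctsl had 2368, 1902 and 885 CPM with NACs and 3141, 8982 and 5473 CPM with ACs (1.79, SE 0.456, edgeR adjusted p = 0.0174). Ctss had 927, 650.1 and 713 CPM with NACs, below all 3 libraries with ACs (1.58, SE 0.396, adjusted p = 0.016), and Acp5 had 28.0, 17.5 and 21.4 CPM (1.65, SE 0.412, adjusted p = 0.016).

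Gusb had 241, 242 and 290.4 CPM with NACs and 673, 370.0 and 923 CPM with ACs (1.35, SE 0.396, edgeR adjusted p = 0.0354). Idua, the iduronidase of heparan and dermatan sulfate, had 11.9, 14.9 and 15.6 CPM and 42.7, 26.5 and 31.7 CPM (1.26, SE 0.392, adjusted p = 0.0456). Of the 6 fits that left out 1 library, Gusb and Idua were each called in 1, Ctsl and Acp5 in 2 and Ctss in 3. Under the 8 other settings Ctsl, Ctss and Acp5 were each called in 7, Gusb in 4 and Idua in 2. Dgkq, on the other strand at the Idua locus, had 1.01 to 16.3 CPM, and the strand setting of the counting is not given in the sources used here. Glb1 and Ctsk had groups that did not overlap, at 1.00 and 1.17 (adjusted p = 0.0931 and 0.06). Leaving out KO-labelled libraries one at a time gave 0, 14 and 1 called genes without replicates 1, 2 and 3 with ACs, where 0%, 23.9% and 2.40% of all genes were called, and 3, 0 and 0 without those with NACs (3.40%, 2.43% and 4.69%). In 1 fit over all 18 libraries 0 of the 46 were called, beside 1.84% of all genes.

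Against untreated macrophages, ACs changed none of the 46 genes under either label (edgeR's quasi-likelihood test), and 0% of all genes. Unadjusted p was under 0.05 for 2 of the 46 under the WT label and 8 under the KO label, against 12.7% and 14.5% of all genes. DESeq2 called 0 in both, beside 0% and 0.0412% of all genes. Under the KO label Ctss had the largest value, 1.75 (SE 0.542, adjusted p = 0.311), from 272, 1304 and 655 CPM untreated to 2106, 2818 and 1858 CPM with ACs, groups that did not overlap, and 1.35 (adjusted p = 0.269) without untreated replicate 1. Ctsl, at 1387, 5145 and 856 CPM untreated, did overlap with ACs (1.38, adjusted p = 0.343, and 1.10 without that replicate), and Acp5 was at -0.29 (adjusted p = 0.87). Under the WT label Ctsl was at -0.20 and Ctss at -0.50 (adjusted p = 0.785 and 0.475).

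Whether the genotype difference itself was other with ACs than with NACs was tested by an interaction term over these 12 libraries. None of the 46 passed, beside 0.0765% of 13076 genes, with 16 of the 46 at an unadjusted p under 0.05, against 20.0% of all genes, and 9 called by DESeq2, against 5.80%. The fitted values were above 0 for 34 of the 46, with a median of 0.80, against 52.2% of all genes. The largest was that of Acp5, 3.41 (SE 0.693, edgeR adjusted p = 0.0522, and 2.34 without WT-labelled replicate 3 with NACs), then Ctsl, 2.58 (SE 0.671, adjusted p = 0.0626), Gusb, 2.00 (adjusted p = 0.072), Hexa, 1.97 (adjusted p = 0.0659), and Ctss, 1.91 (adjusted p = 0.0855). For these genes a difference between the genotype contrasts with ACs and with NACs is thus not shown by this test, and the one between ACs and no treatment was not tested.

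**Figure D5:**
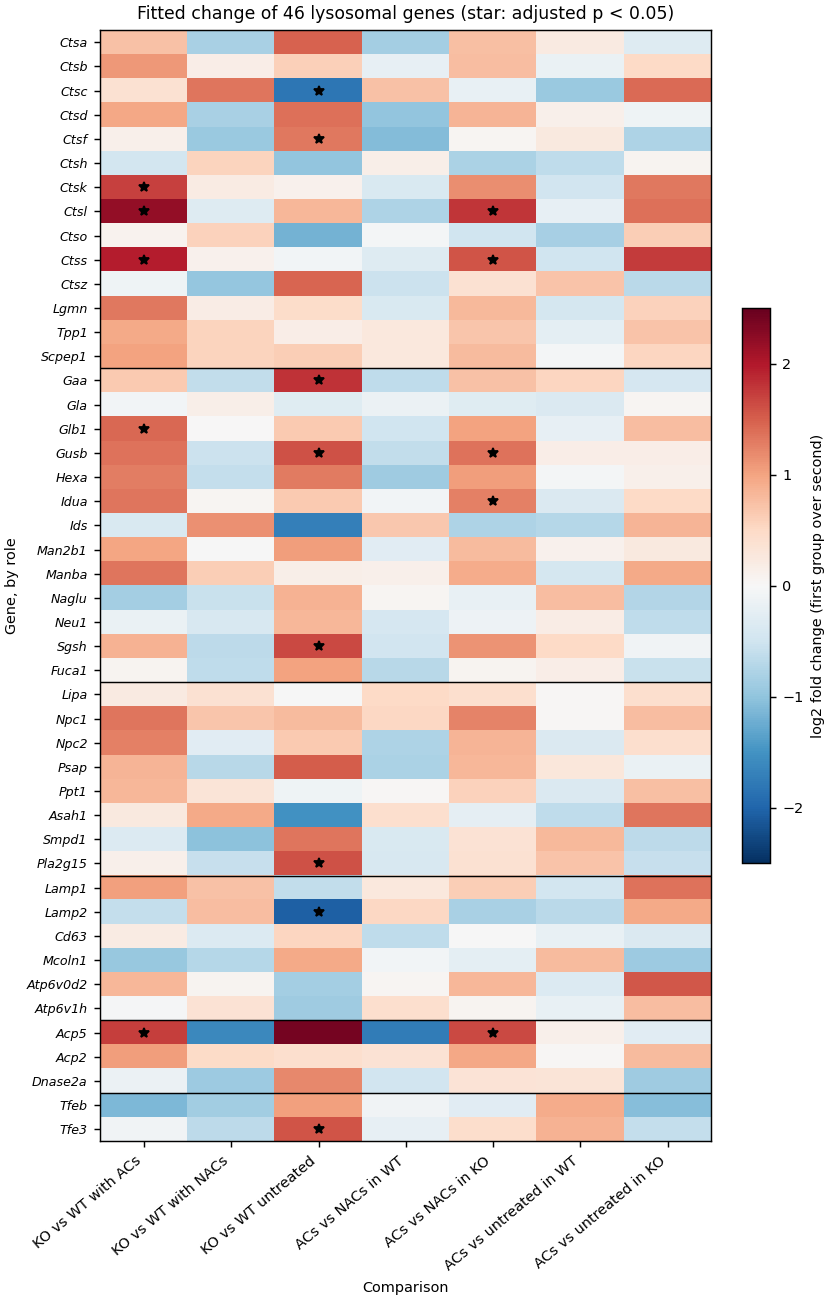
Log2 fold change (colour, first group over second) of the 46 genes, grouped by role from proteases at the top to the 2 regulators at the bottom, in 7 comparisons; stars mark an adjusted p under 0.05. The column of KO-labelled against WT-labelled macrophages with ACs holds 5 stars, all for higher values, the untreated column 6 for higher and 2 for lower values, and the NACs column none.

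The genes whose levels ran most like Ctsl over the 18 libraries, by Pearson's r of log2 CPM among 13661 genes, were Procr (0.863), Mmp19 (0.857), Vsig8 (0.849), Siglecf (0.848) and Egr2 (0.83). Ctsk was sixth (0.829), Ctss was at rank 15 (0.789) and Acp5 at rank 26 (0.744), while the next of the 46, Npc2, was at rank 99 (0.616). At the other end were Ctsh (-0.387), Mcoln1 (-0.299) and Tfeb (-0.239). The values describe these libraries, which share 3 at a time their group and differ in depth.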

How the data were processed

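RNA of 18 cultures was sequenced, and the files hold whole-number counts per gene. Per the deposited file headers and the submitters' processing notes, the authors trimmed reads with Trimmomatic 0.36, aligned them to GRCm38 with STAR 2.5.2b and counted with featureCounts (Subread 1.5.2). The strand setting and the annotation release are not given in the sources used here, so overlapping genes may share reads. Gene symbols came from GENCODE M21 by identifier.

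Here the deposited counts were tested with edgeR 4.0.16 (quasi-likelihood, TMM, R 4.3.3) on the libraries of each comparison, after filterByExpr (minimum count 10, total 15), with Benjamini-Hochberg adjustment over all genes tested and a threshold of 0.05. CPM used TMM factors over all 18 libraries, and CPM per kb used the exon length in the files. Library totals of 4704491 to 26421267 counts make low counts least precise in the shallowest library. Replicates did not agree within sampling noise (chi-square per degree of freedom 39.7 to 345), so none was merged.

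Alternatives were DESeq2 1.42.0 (Wald test, and its size factors in edgeR), library totals, no filter, 1 fit over 18 libraries, a replicate block, a per-library GC and length offset (mgcv 1.9.3), and leaving out each library. The fitting scripts were tested on simulated data. The rule for named genes took those called with groups that did not overlap (at most 12 a comparison), the largest absolute change of each role between labels, the 5 highest and 3 lowest per kb, the 2 regulators, Hdac3 and Lyz2, and the 5 genes most like the most changed one. Other genes with values, such as Lgmn, Npc2, Man2b1 and Scpep1, were chosen after their values were seen. The members and lists were chosen by symbol with earlier results of these data known, so they were not blind to the data. Promoters came from RefSeq, and proteins were not used here. The values of 1 gene of the second lysosomal list are not reported here.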

Additional observations from a re-analysis of the deposited data

How the results depend on the processing

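Counts are of the 46 genes at an edgeR adjusted p under 0.05, with the share of all genes called in the same fit in brackets, and the causes of the shifts were not tested. For KO-labelled against WT-labelled macrophages with ACs the count was 5 (3.75%). It became 12 by DESeq2's Wald test (11.2%), 11 with no filter (2.99%) and 14 with the GC and length offset (9.76%). Leaving out 1 library, it ran from 0 to 12 (0% to 13.3%). With NACs the count of 0 (0.864%) became 1 by the Wald test (3.70%), 2 with no filter (2.28%) and 1 with the replicate block (1.82%). Leaving out 1 library, it ran from 0 to 15 (0% to 24.6%). Untreated, the count of 8 (11.6%) became 21 by the Wald test (27.1%) and 20 in 1 fit over 18 libraries (24.2%). It became 0 with the offset, with or without the replicate block (0%). Leaving out 1 library, it ran from 0 to 25 (0% to 46.3%). It was 12 with DESeq2's size factors (13.5%). For ACs against NACs the WT label had 0 (0%), and 1 with no filter (0.186%). The KO label had 5 (7.38%), then 3 with library totals (4.72%) and 0 in 1 fit over 18 libraries (1.84%). Leaving out 1 library, the KO label had 0 to 14 (0% to 23.9%). The interaction count of 0 (0.0765%) became 1 with size factors (0.291%), 9 by the Wald test (5.80%) and 6 with no filter (1.92%). It became 2 with the offset (1.63%) and 1 with the offset and the replicate block (0.772%). Leaving out 1 library, it ran from 0 to 6 (0% to 6.14%), and the fit with 6 called 5.63% of all genes. Against untreated cells every alternative gave 0, beside 0% to 0.705% of all genes under the WT label and 0% to 0.127% under the KO label.

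Same-numbered replicates of groups compared directly did not deviate together throughout: of 21 pairs 5 had a correlation over 0.1 (range -0.33 to 0.461), and in 0 comparisons did all 3. Over all 15 pairs of groups, 13 of 45 correlations were over 0.1 (up to 0.487), and in 1 pair, the WT label with ACs and the KO label with NACs, all 3 were (0.177 to 0.486). Both groups enter the interaction, but its other pairs of groups did not meet this, so the numbers were not taken as pairing. The study's methods give 3 animals per group and do not say whether the treatments under a label shared mice. Treatment comparisons within a label may therefore share mice. With the replicate block the counts were 4 with ACs (3.03%), 8 untreated (4 higher and 4 lower, beside 2.21% and 8.83% of all genes), 6 for ACs against NACs under the KO label (11.4%) and 0 for the interaction (0.0765%).

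Among the named genes recomputed under every alternative, signs turned for Tfe3 and Hdac3 alone. Tfe3 with ACs was -0.09, 0.033 with no filter and -0.47 to 0.30 leaving out 1 library. Hdac3 ran from -0.84 to 0.28 with ACs and from -0.86 to 0.17 with NACs (0.049 with library totals), and from -0.22 to 1.17 untreated (-0.041 with library totals). Of the values of named genes under alternatives, 359 kept direction and side of the threshold, 124 were no longer past it and 23 newly were.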
